A study of Mus musculus with 83 samples.

Results

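The genes described here are 47 mouse genes of mitosis and DNA replication, chosen by symbol for their known function. Of them, 31 act in mitosis and cytokinesis and 16 in DNA replication and the G1/S step. The culture tables list 11144 genes, among them 46 of the 47. Tyms, the thymidylate synthase gene, has no culture value. All 47 have a value in the tissue table, over 62 of its 29082 RefSeq transcripts.

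The study measured poly(A) RNA of brown fat and of brown fat cells in culture as they turned from precursors into adipocytes. The tissue group is interscapular brown adipose tissue of C57BL/6J mice aged 16 weeks. The cultured cells were immortalized brown preadipocytes with a floxed Pparg allele pair (Pparg-flox/flox) on a C57BL/6J background. They came from the interscapular brown fat of newborn mice and were immortalized with a retrovirus carrying SV40 large T antigen, so all culture groups share both the floxed alleles and the viral protein. The culture groups are proliferating cells at day -3, confluent cells at day 0, immature adipocytes at day 2 and mature adipocytes at day 7. Differentiation was started at day 0 with insulin, the thyroid hormone T3, IBMX, dexamethasone and indomethacin, and medium with insulin and T3 was given at days 2, 4 and 6. Each group has 1 library, so no value has a replicate error, no p-value is given, and a difference between groups here is a difference between 2 libraries. The labels do not say how many animals or cell lines went into a library.

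A cell that divides first licenses its origins with the MCM helicase, then copies its DNA in S phase, and then separates the chromosomes in mitosis under the control of cyclin-dependent kinase 1. Transcription of the replication genes peaks around the G1/S step through E2F factors, which the retinoblastoma (RB) proteins hold in check. Mitotic genes peak later, through the MuvB complex and its partners at cell cycle homology region (CHR) elements, often beside CCAAT boxes bound by NF-Y. SV40 large T antigen is known to bind the RB proteins and p53. Fat cell precursors in culture normally stop dividing at confluence, and mature adipocytes are non-dividing cells.

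The promoters of the gene classes hold different motifs, and 4 are shown because they carry those of each class. They were picked after the matches were seen. The sequences are RefSeq's for assembly GRCm38.p6 and cover the 250 bases before the annotated start, on the gene's strand. Capitals mark matches on either strand to the CHR word TTTGAA, to the NF-Y box CCAAT and to the E2F core. The core was searched in the form TTCCCGC, in the form TTGGCGC, in the form TTCGCGC and in the form TTGCCGC. Longer runs of capitals are overlapping matches. The Cdk1 stretch lies at chr10:69352913-69353162 (minus strand), Ccnb2 at chr9:70421555-70421804 (minus strand), Mcm6 at chr1:128359706-128359955 (minus strand) and Mcm5 at chr8:75109259-75109508 (plus strand).
Cdk1: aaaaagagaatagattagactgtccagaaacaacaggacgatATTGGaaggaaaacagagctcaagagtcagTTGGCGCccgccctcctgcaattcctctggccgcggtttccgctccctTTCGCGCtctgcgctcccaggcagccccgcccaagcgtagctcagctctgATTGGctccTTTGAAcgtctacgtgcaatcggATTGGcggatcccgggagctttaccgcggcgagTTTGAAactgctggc
Ccnb2: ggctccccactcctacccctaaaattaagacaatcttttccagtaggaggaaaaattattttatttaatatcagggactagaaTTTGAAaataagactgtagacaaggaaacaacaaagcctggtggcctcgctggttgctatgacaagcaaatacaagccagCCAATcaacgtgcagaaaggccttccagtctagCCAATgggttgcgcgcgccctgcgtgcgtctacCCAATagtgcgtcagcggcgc
Mcm6: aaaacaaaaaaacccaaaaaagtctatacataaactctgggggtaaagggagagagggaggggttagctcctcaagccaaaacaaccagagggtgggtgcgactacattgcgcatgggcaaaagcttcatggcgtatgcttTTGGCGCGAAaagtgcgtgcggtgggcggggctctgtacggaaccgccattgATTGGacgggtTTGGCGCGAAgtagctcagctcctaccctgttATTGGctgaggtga
Mcm5: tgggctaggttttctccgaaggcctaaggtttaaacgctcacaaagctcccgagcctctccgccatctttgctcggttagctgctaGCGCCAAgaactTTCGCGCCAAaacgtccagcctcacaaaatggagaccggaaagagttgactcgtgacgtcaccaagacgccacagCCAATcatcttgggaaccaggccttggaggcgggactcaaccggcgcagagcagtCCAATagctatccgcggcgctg
That of Cdk1 holds all 3 motifs, and that of Ccnb2 holds CHR and CCAAT matches only. Those of Mcm6 and Mcm5 hold E2F and CCAAT matches and no CHR match. Matches after the start are not shown, such as a CHR match of Ccnb2 centred 6.5 bases after it.

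Over 300 bases, 250 before and 50 after the start, 42 of the 47 genes matched the promoter table, with 45 windows in all. Ect2, Prc1 and Mcm7 have 2 windows each, and those of Ect2 and Prc1 overlap, so the same site there counts in both. Ccna2, Aurkb, Kif20a, Tpx2 and Mcm4 had no entry. A CHR match stood in 23 of 29 windows of mitosis genes (79.3%) and in 1 of 16 of replication genes (6.25%), that of Mcm2. The share was 11.8% over the 11381 windows of genes in the culture tables and 17.9% over all 32851 windows. E2F words ran the other way, in 5 of 29 mitosis windows (17.2%) and 12 of 16 replication windows (75%), against 16.7% of the windows of culture genes and 9.57% of all windows. Counted by gene, CHR matches stood in 21 of 27 mitosis genes and 1 of 15 replication genes, and E2F words in 4 of 27 and 11 of 15. CCAAT was common to both classes, at 82.8% and 68.8% of the mitosis and replication windows, against 38% of culture-gene windows and 37.4% of all.

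All 6 spindle and cytokinesis genes with a window held a CHR match, and so did 7 of 11 kinetochore and checkpoint genes. Of the licensing genes, 6 of 7 held an E2F word. The windows of Birc5, Mad2l1, Nuf2, E2f1 and Tyms held none of the 3 motifs as spelled here. CHR matches of the mitosis genes centred 4.5 bases after the start (median of 30 matches at 27 distinct sites), and their 56 CCAAT matches at 52 sites had their median at -67.5, upstream of it. The 26 E2F matches of the replication genes had their median at -53.5. Median GC content was 59% for mitosis windows and 57.5% for replication windows, against 61% for culture-gene windows. Of the 138 matches (130 distinct sites), 23 overlapped another, 11 of them where a CCAAT and an E2F match meet. A match is a run of letters, not a bound site.

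**Figure D1:**
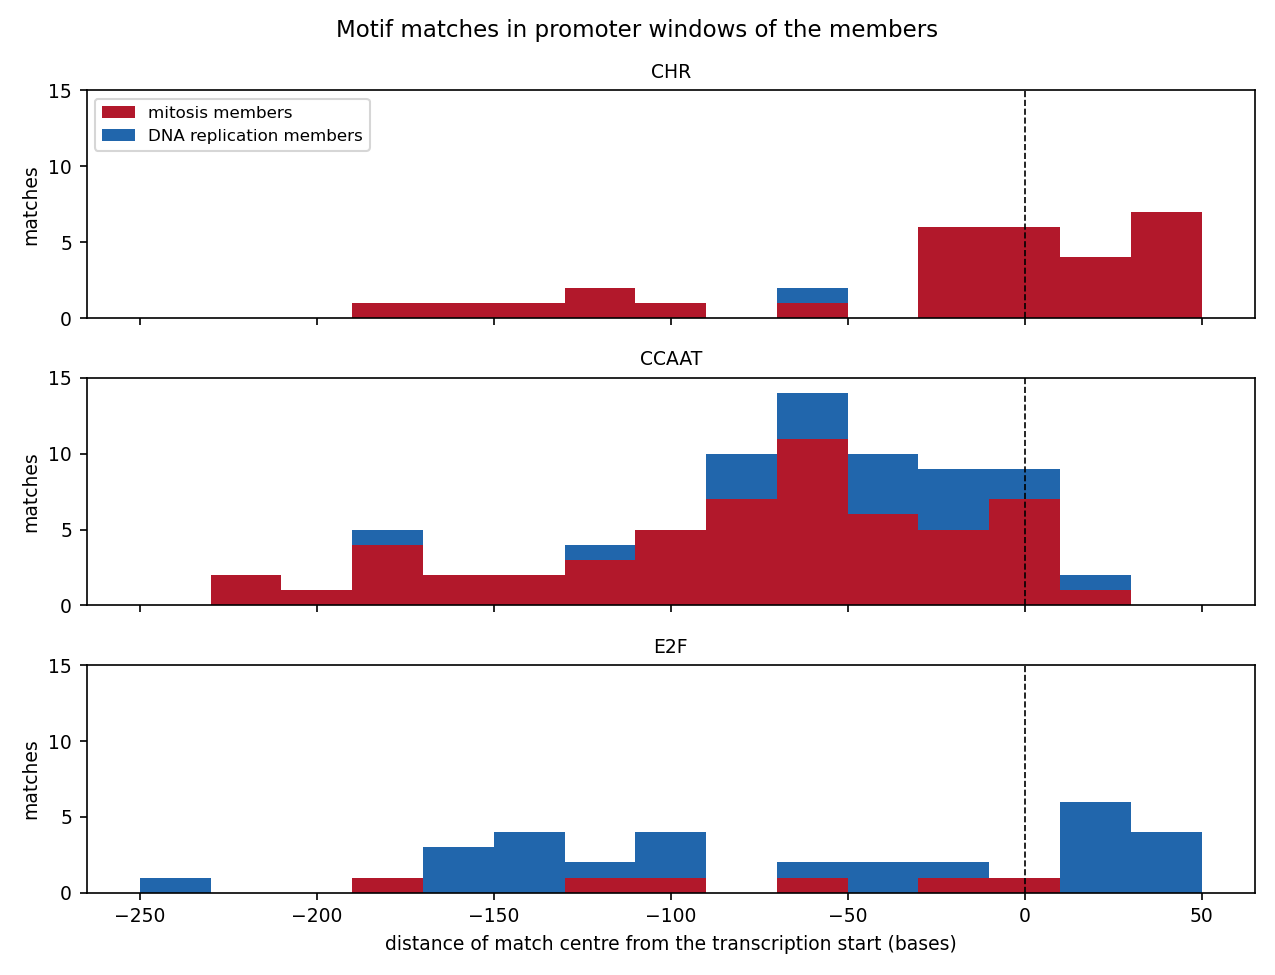
Positions of CHR, CCAAT and E2F matches in the promoter windows of the member genes, in bases from the annotated start (horizontal), as the number of matches per bin (vertical, stacked bars), for mitosis genes (red) and replication genes (blue). CHR matches of mitosis genes gather around the start, with a median of 4.5, and the E2F matches come mainly from replication genes, whose matches have a median of -53.5.

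In culture these genes were among the more abundant transcripts on every day. FPKM is fragments scaled for transcript length and library size, so levels of genes can be compared within a library. The median of the 46 genes was 56.9, 49.9, 55.7 and 58.7 FPKM at days -3, 0, 2 and 7, while the median of all listed genes was 12.2, 13.0, 13.2 and 13.4 FPKM. Their median percentile among all listed genes was 87.5, 87.5, 88.9 and 89.5. The lowest value of any of the 46 in any library was 11.4 FPKM, for Cdc6 at day 0, so every one of them passed the filter on low values. Together they made up 0.837%, 0.841%, 0.893% and 0.898% of the summed FPKM. The culture depth is not known, and in bulk RNA fewer cells of a type and less RNA per cell cannot be told apart.

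The adipocyte markers differed widely over the same days. All 10 adipocyte markers were at least 2-fold higher at day 7 than at day -3, and Adipoq, the adiponectin gene, had 0.234, 0.260, 142 and 590 FPKM over the 4 days. Of the markers of other cells, 3 of 7 macrophage, 1 of 7 leukocyte, 1 of 6 endothelial and 1 of 4 erythroid markers are listed in the culture tables. All 5 brown fat markers were also at least 2-fold higher at day 7 than at day -3. Cox7a1, a subunit of cytochrome c oxidase, had the largest difference, with 0.220, 1.96, 1.59 and 132 FPKM over the 4 days. Ucp1, the uncoupling protein that defines thermogenic brown fat, had the smallest, with 0, 0, 0.0357 and 1.22 FPKM. The other 3 reached between 1.91 and 8.81 FPKM at day 7, the highest of them Cidea. Of 5 preadipocyte markers, 4 have a culture value. At day 7 and day -3, Pdgfrb had 25.3 and 34.4 FPKM, and Pdgfra had 11.7 and 1.64 FPKM. Ly6a had 9.78 and 20.8 FPKM, and Cd34 had 0.927 and 1.22 FPKM. Which cells of the day 7 culture carried the division transcripts was not tested. Of the division genes, 43 of the 46 genes (93.5%) stayed within 2-fold between their highest and lowest day on the log2(FPKM + 1) scale. Of all 11144 listed genes, 48.4% ranged by 2-fold or more, so 51.6% stayed within it, and of the 6771 with a mean of at least 10 FPKM 57.3% did. The median range over the 4 days was 0.45 log2 units for the 46 genes and 0.97 for all genes. The exceptions were Rrm2, Ccnb2 and Kif23, whose largest value was 3.71, 2.30 and 2.21 times the smallest. These ranges are of the values as deposited. They were not repeated with the libraries rescaled, which can move genes near the limit such as Kif23.

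The days named below as highest or lowest are of the values as deposited. With the libraries rescaled to a common total, 17 of the 46 genes had another highest day, 16 of them in place of day -3, and 13 had another lowest day.

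Among the mitotic kinases and cyclins, Cdk1, the kinase that drives entry into mitosis, had 242, 164, 182 and 157 FPKM at days -3, 0, 2 and 7. It was highest in proliferating cells and within 1.55-fold over all days. Its partner Ccna2 (cyclin A2, used in S phase and G2) had 112, 88.9, 98.0 and 99.4 FPKM. Both were highest at day -3 (Ccna2 at day 2 on the common total), and neither came near a 2-fold difference. Ccnb2 (cyclin B2, a mitotic partner of Cdk1) had 39.1, 66.6, 59.7 and 89.7 FPKM, lowest in the proliferating library and highest in the mature adipocyte library. Its relative Ccnb1 had 24.2, 23.1, 27.6 and 32.0 FPKM, also highest at day 7. Plk1, a kinase of mitotic entry and spindle assembly, had 40.0, 35.95, 25.9 and 28.4 FPKM, higher on the first pair of days than on the last. Aurka, the centrosome kinase, and Ttk, the checkpoint kinase, stayed within 1.36-fold and 1.35-fold. Ttk was the lowest of these genes, at 12.0 to 16.2 FPKM.

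Of the mitotic chromosome genes, Top2a, the topoisomerase that untangles sister DNA, had 136, 143, 228 and 196 FPKM. Mki67, the Ki-67 protein that coats mitotic chromosomes and the usual stain for cycling cells, had 55.3, 56.3, 63.8 and 87.0 FPKM. Neither gene had its lowest value in the adipocyte libraries: both were lowest at day -3 (at day 0 when divided by median-ratio factors), with Top2a highest at day 2 and Mki67 at day 7. In the chromosomal passenger complex, which corrects chromosome attachment, Birc5 (survivin) had 113, 78.1, 70.4 and 68.7 FPKM. The kinase of that complex, Aurkb, had 48.6, 47.2, 57.9 and 57.4 FPKM. Birc5 was highest at day -3 and Aurkb at day 2. Cdca8 (borealin), a further subunit, ran between 40.7 and 58.5 FPKM.

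The kinetochore, checkpoint and anaphase-promoting complex genes were led by Cenpa and Cdca3. Cenpa, the histone of the centromere, had 111, 116, 83.3 and 139 FPKM and was the highest of them at days -3 and 0. Cdca3, a trigger of mitotic entry, had 83.3, 96.6, 86.7 and 141 FPKM and was the highest at days 2 and 7. Both were highest in the mature adipocyte library. Cdc20, the activator of the anaphase-promoting complex, had 61.04, 49.1, 33.4 and 58.5 FPKM, lowest at day 2. Its partner Ube2c, the ubiquitin-conjugating enzyme, had 87.0, 71.4, 59.0 and 79.2 FPKM, with the same low day. The checkpoint genes Bub1, Bub1b and Mad2l1 ran between 24.3 and 50.8 FPKM over all days, and the kinetochore genes Ndc80, Nuf2, Cenpe and Cenpf between 15.2 and 42.5 FPKM. Cenpf was highest at day 7, and Nuf2 at day 2.

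Of the spindle and cytokinesis genes, Racgap1, a part of the central spindle, had 105, 105, 113 and 137 FPKM. Prc1, which bundles the microtubules there, had 71.8, 63.5, 57.9 and 76.2 FPKM. Both were highest at day 7. Kif23, the motor that pairs with Racgap1, had 35.9, 31.5, 16.2 and 24.2 FPKM and was lowest at day 2. Anln, the scaffold of the contractile ring, had 62.4, 41.6, 37.04 and 59.0 FPKM, also lowest at day 2. Ect2, which activates the ring's RhoA, and the motor Kif20a were lowest at that day too, at 26.8 and 45.5 FPKM. Kif11, the motor that pushes the spindle poles apart, was lowest at day -3 (32.6 FPKM) and highest at day 7 (49.3 FPKM). Tpx2, a spindle assembly factor, varied by 1.30-fold.

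The replication genes were led by the MCM helicase. Mcm6 had 108, 128, 136 and 126 FPKM, and Mcm3 had 114, 90.4, 97.5 and 87.1 FPKM. Mcm6 was lowest at day -3, where Mcm3 was highest (at day 2 on the common total). The other MCM genes Mcm2, Mcm4, Mcm5 and Mcm7 ran between 56.9 and 98.4 FPKM, and Mcm7 varied least of the 46 genes, by 1.09-fold. Of the loaders of the helicase, Cdt1 had 50.5, 52.0, 54.8 and 77.6 FPKM and Cdc6 had 17.6, 11.4, 13.5 and 11.7 FPKM. Cdt1 was thus highest in the mature adipocyte library and Cdc6 in the proliferating library.

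At the replication fork, Pcna, the sliding clamp of the DNA polymerases, had 81.6, 74.5, 78.8 and 66.1 FPKM. Prim1, the primase subunit, had 46.7, 46.0, 70.6 and 54.0 FPKM, highest at day 2. Pola1, the polymerase that extends its primers, stayed between 20.2 and 22.5 FPKM. Ribonucleotide reductase makes deoxynucleotides, and its small subunit gene Rrm2, normally restricted to S phase, had 144, 38.7, 65.2 and 57.6 FPKM. It was the gene that varied most, with the proliferating library far above the other three. The large subunit gene Rrm1 had 113, 75.5, 75.5 and 79.6 FPKM, with the same high day. E2f1, the E2F factor of the list, had 39.6, 40.3, 47.6 and 34.7 FPKM, and Chek1, the kinase of the replication checkpoint, had 26.998, 23.5, 26.1 and 24.7 FPKM. E2f1 was lowest in the mature adipocyte library.

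**Figure D2:**
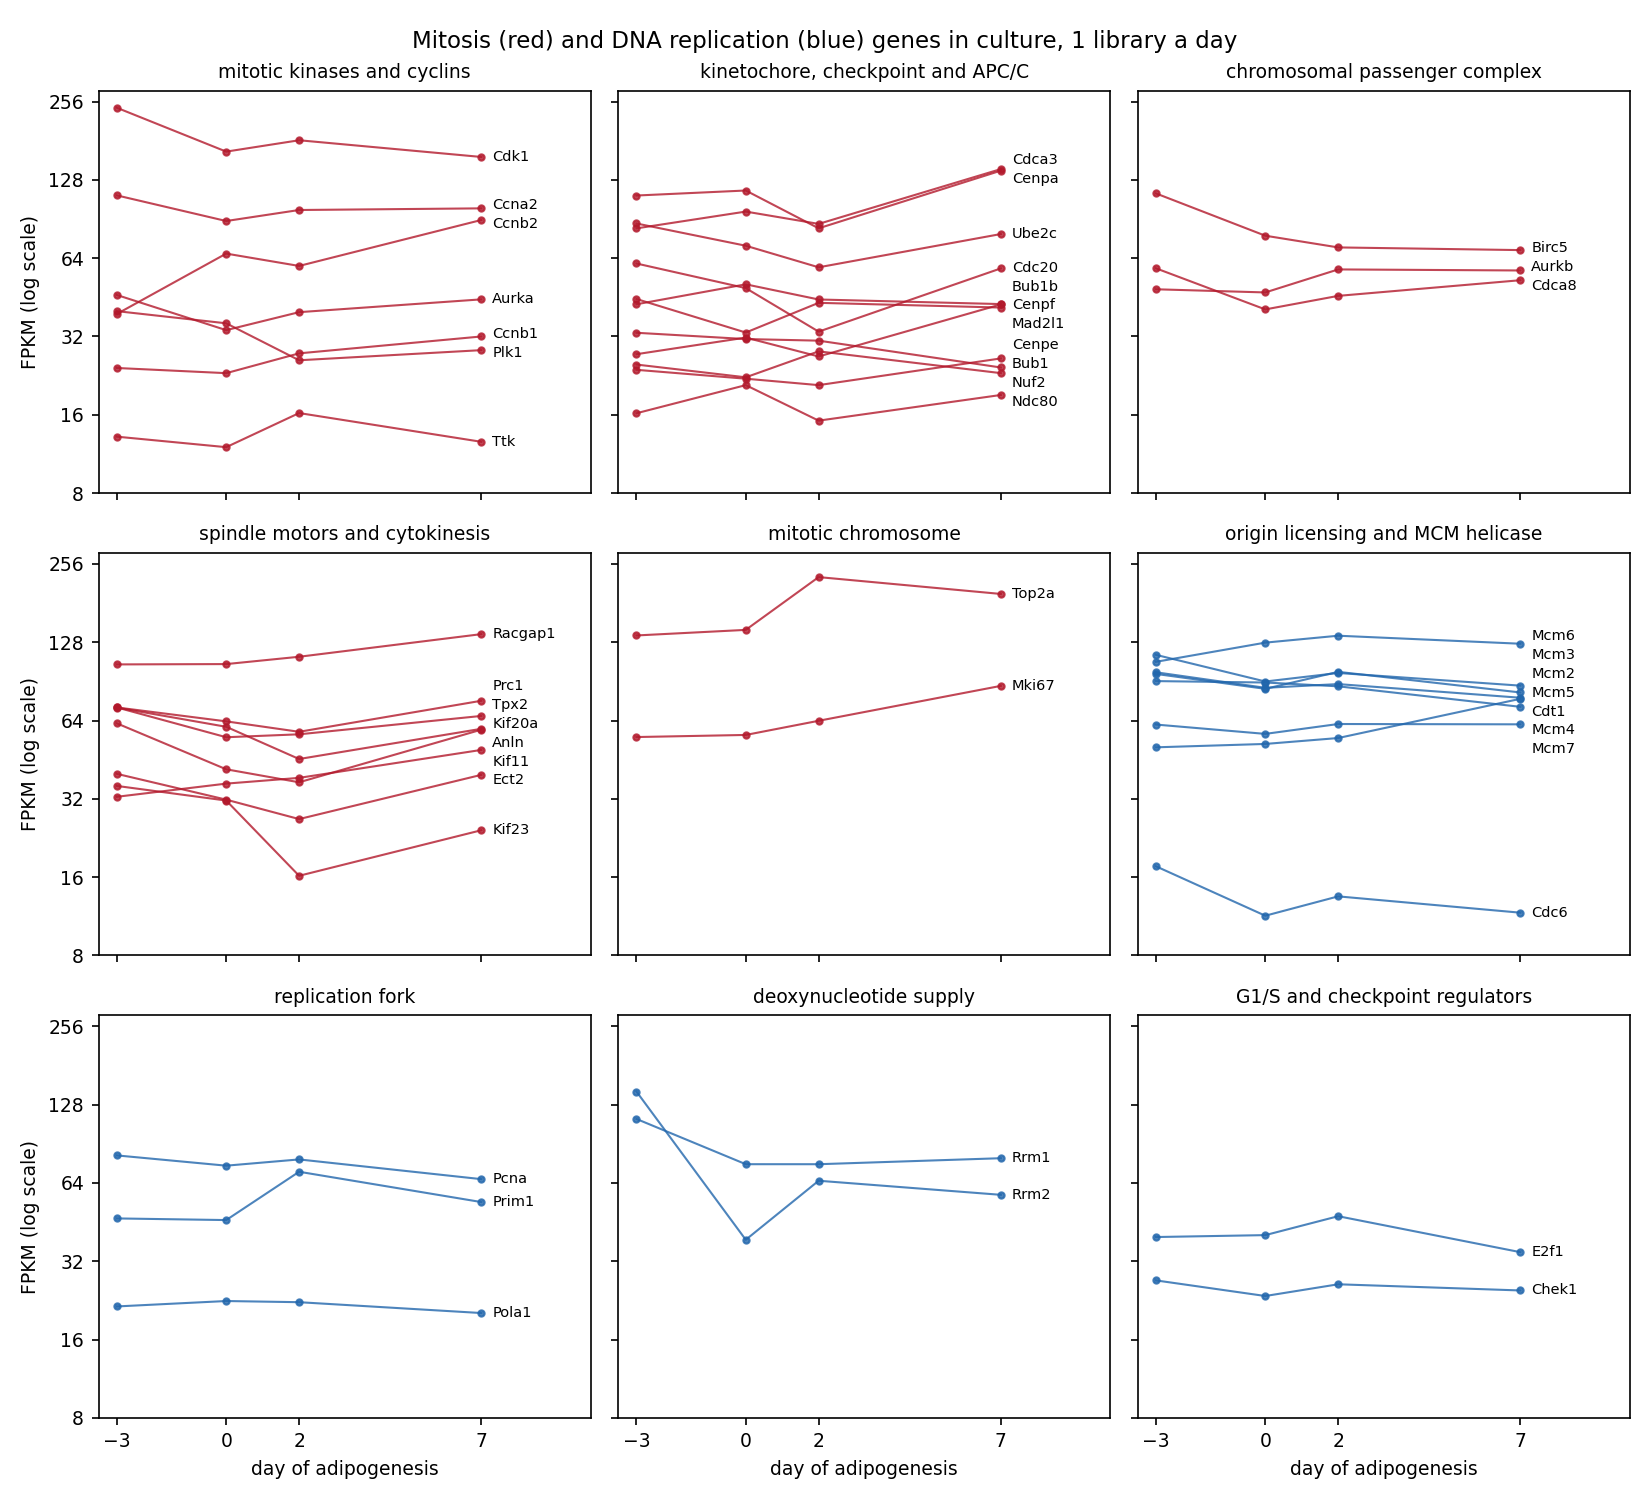
FPKM (log scale) of the 46 genes with a culture value against day of adipogenesis, in 9 panels by role, mitosis in red and replication in blue, with 1 point per library. Of the lines, 43 stay within 2-fold, and the others are Rrm2, at 144 FPKM on day -3 and 38.7 on day 0, Ccnb2 and Kif23.

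Day 0 against day -3 asks what differed between confluent and growing cells. At day 0, Rrm2 was the 1 gene of the 46 past 2-fold, at 38.7 FPKM, against 144 FPKM at day -3, a log2 difference of -1.87. None was 2-fold higher. Of all 10602 genes compared, 16.8% passed 2-fold, 11.3% higher and 5.43% lower, which is 1201 and 576 genes (1656 and 385 on a common total). The next genes down were Cdc6 (-0.59), Anln (-0.57), Rrm1 (-0.57) and Cdk1 (-0.56), and Ccnb2 stood at the other end (0.76). The median difference was -0.15 for the 31 mitosis genes and -0.13 for the 15 replication genes, against 0.06 for all genes. With the libraries rescaled to a common total these medians were 0.05 and 0.08, against 0.25 for all genes, so their sign depended on the scaling. Relative to the median of all genes they lay lower by either scaling, at -0.21 and -0.19 as deposited and at -0.20 and -0.18 on the common total.

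Day 2 against day 0 covers the hormone induction. None of the 46 genes was 2-fold higher or 2-fold lower, while 16.9% of 10717 genes were past it, 6.18% higher and 10.7% lower. The replication genes had a median difference of 0.11 with 12 of 15 above 0, led by Rrm2 (0.74) and Prim1 (0.61). The mitosis genes had a median of -0.08 with 14 of 31 above 0. They spread from Kif23, at 16.2 FPKM at day 2 and 31.5 FPKM at day 0 (-0.92), to Top2a, at 228 FPKM at day 2 and 143 FPKM at day 0 (0.67). In the kinetochore and checkpoint role, 9 of 11 genes were below 0 (8 on the common total), and Mad2l1 (0.37) and Nuf2 (0.32) were above. All genes had a median of -0.01.

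Day 7 against day 2 sets the mature against the immature adipocyte library, and here the classes differed most. The mitosis genes had a median difference of 0.29 with 22 of 31 above 0, and the replication genes had a median of -0.17 with 2 of 15 above 0, against 0.02 for all genes. Again none of the 46 genes was 2-fold higher or lower, against 14.8% of 10666 genes, 9.62% higher and 5.14% lower. All 8 spindle and cytokinesis genes were above 0, and the largest difference was that of Cdc20, with 58.5 FPKM at day 7 and 33.4 FPKM at day 2 (0.79). Cenpa (0.73), Cdca3 (0.69), Anln (0.66) and Cenpf (0.65) followed. E2f1 was lowest (-0.45), and Prim1 was at -0.38. The replication genes above 0 were Cdt1, with 77.6 FPKM at day 7 and 54.8 FPKM at day 2 (0.49), and Rrm1 (0.08).

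The median of the mitosis genes exceeded that of the replication genes by 0.46 log2 units at this step. The gap does not move with the scaling of a library in any sizeable way, since both classes come from the same libraries. On the common total 21 of 31 mitosis genes and 1 of 15 replication genes were above 0. At the other steps the gap was -0.02 for day 0 against day -3, -0.19 for day 2 against day 0 and 0.18 for day 7 against day -3. The steps share libraries, so they are not independent of each other.

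Day 7 against day -3 gives the net difference between the libraries of mature adipocytes and of growing precursors. Ccnb2 was 2-fold higher, at 89.7 FPKM at day 7 against 39.1 FPKM at day -3 (1.18), and Rrm2 was 2-fold lower, at 57.6 FPKM at day 7 against 144 FPKM at day -3 (-1.30). That is 1 gene each way of 46, where 20.3% of 10828 genes were higher and 14.7% lower, 35% in all. After Ccnb2 came Cdca3 (0.75), Mki67 (0.64), Cenpf (0.62) and Cdt1 (0.61), and after Rrm2 came Birc5 (-0.72), Cdk1 (-0.62) and Cdc6 (-0.55). The median difference was -0.05 for the mitosis genes and -0.23 for the replication genes, against 0.07 for all genes. On the common total the mitosis median was 0.08 and the replication median -0.10, against 0.20 for all genes, so the sign of the mitosis median depended on the scaling. Of the mitosis genes 15 had their highest value at day -3 and 10 at day 7, and of the replication genes 8 had it at day -3 and 1 at day 7. On the common total these counts were 4 at day -3 and 16 at day 7 for mitosis genes, and 3 at day -3 and 1 at day 7 for replication genes.

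**Figure D3:**
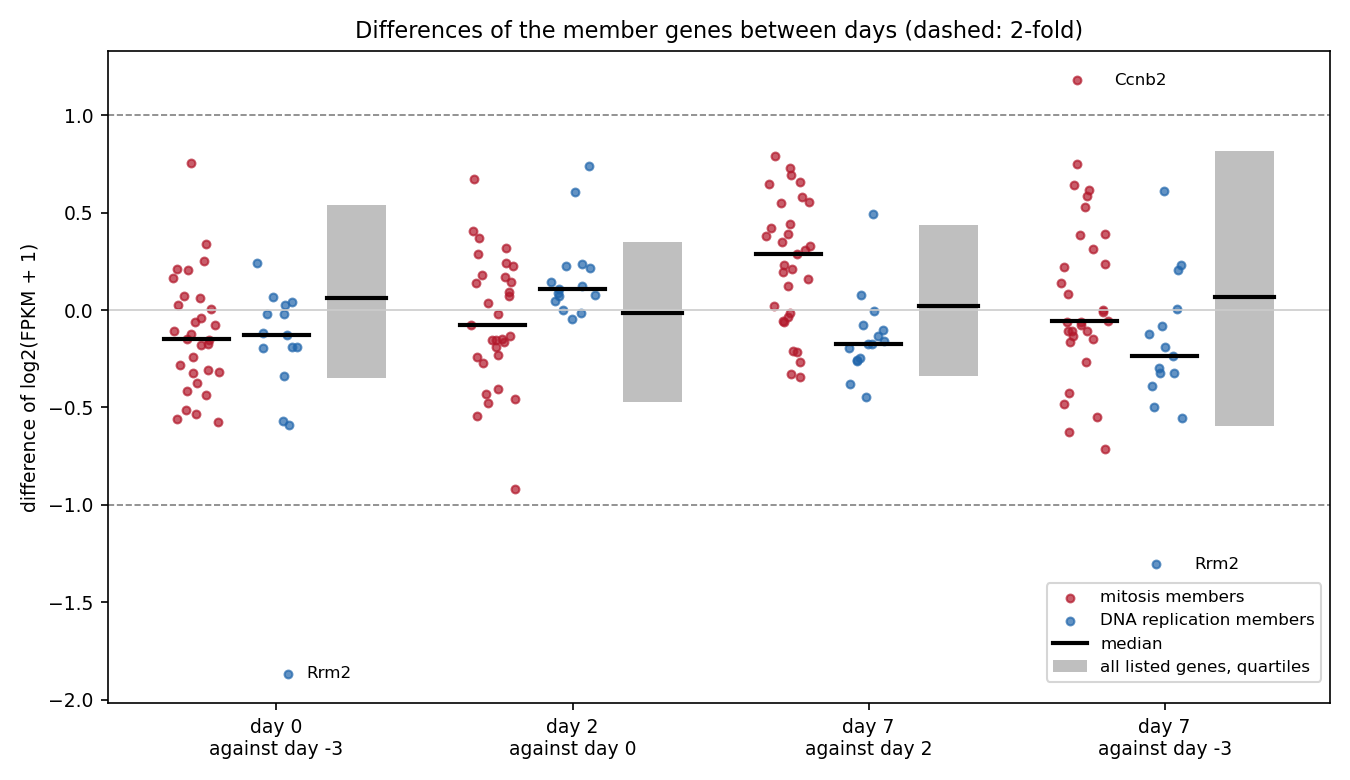
Differences of log2(FPKM + 1) for each of the 46 genes (points) in the 4 comparisons, later day minus earlier day, for mitosis genes (red) and replication genes (blue), with black lines at medians and grey bars for the quartiles of all listed genes. The classes separate most for day 7 against day 2, with medians of 0.29 and -0.17, and Rrm2 lies apart at day 0 against day -3, at -1.87.

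Further genes of the same pathways, from lists that hold none of the 46, were laid beside them. Of 54 other mitosis genes 45 (83.3%) stayed within 2-fold over the 4 days, and of 46 other replication genes 42 (91.3%) did. The share of all listed genes was 51.6%. For day 7 against day 2 their medians were 0.26 and -0.16, with 39 of 54 and 14 of 46 above 0, a gap of 0.42. For day 2 against day 0 the medians were -0.01 (0.02 on the common total) and 0.22. For day 7 against day -3, 20.3% of all genes were 2-fold higher and 14.7% lower. Of the 54 mitosis genes, 4 were 2-fold higher (Nusap1, Cdc25b, Pttg1 and Dsn1) and 3 lower (Trip13, Mad1l1 and Cenpt). Of the 46 replication genes, Orc2, a subunit of the origin recognition complex, was lower and none was higher. Both sets of counts are of the values as deposited. Calls near 2-fold, such as that of Orc2 (-1.07), can change on the common total, and Rfc4 (0.90) lay just short of the limit. Nusap1, a spindle protein, had 16.5, 30.7, 24.5 and 45.5 FPKM over the 4 days, and Trip13, a checkpoint ATPase, had 31.8, 14.4, 16.3 and 10.2 FPKM.

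The cyclins and kinases of G1 and the E2F, RB, MuvB and MuvB-partner genes were laid beside them as well. Of the 7 G1 cyclins and kinases compared, of 10 on the list, 2 (28.6%) stayed within 2-fold over the 4 days, against 51.6% of all listed genes. For day 7 against day -3, 4 were 2-fold lower as deposited, Ccnd3 only just (-1.01), and none was higher. Of all genes, 14.7% were lower and 20.3% higher. Ccnd1 (cyclin D1, which opens the G1 phase) had 69.7, 20.6, 1.38 and 1.26 FPKM. Ccnd2 had 98.9, 47.8, 53.9 and 26.2 FPKM, and their kinase Cdk4 had 407, 355, 243 and 149 FPKM. All 3, and Ccnd3 with 28.4 FPKM at day 7 and 58.2 FPKM at day -3, were lowest in the mature adipocyte library. Cdk2, the kinase of the G1/S step and S phase, went the other way, with 32.6, 37.1, 45.3 and 51.6 FPKM. Its partner Ccne2 (cyclin E2) had 29.4, 15.5, 30.3 and 34.3 FPKM and was also highest at day 7. Cdk6 was low throughout, at 1.93 to 3.24 FPKM.

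The list of E2F, RB, MuvB and MuvB-partner genes holds 19 genes, 17 of them with a value. Of these 17, 9 (52.9%) stayed within 2-fold, a share near the 51.6% of all listed genes. For day 7 against day -3, 5 were higher and 3 lower as deposited, where all genes had 20.3% higher and 14.7% lower. Rb1, the retinoblastoma gene, had 2.88, 6.11, 12.3 and 27.1 FPKM, and its relative Rbl2 had 6.74, 14.6, 16.5 and 22.6 FPKM. Both were higher on each later day. Mybl2 (B-MYB, which joins MuvB at mitotic promoters) had 31.1, 12.2, 14.4 and 8.02 FPKM, and E2f3 had 22.3, 11.5, 13.9 and 6.58 FPKM. Both of these were highest at day -3 and lowest at day 7. No set of genes was tested against another, and each count is a description of these 4 libraries.

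**Figure D4:**
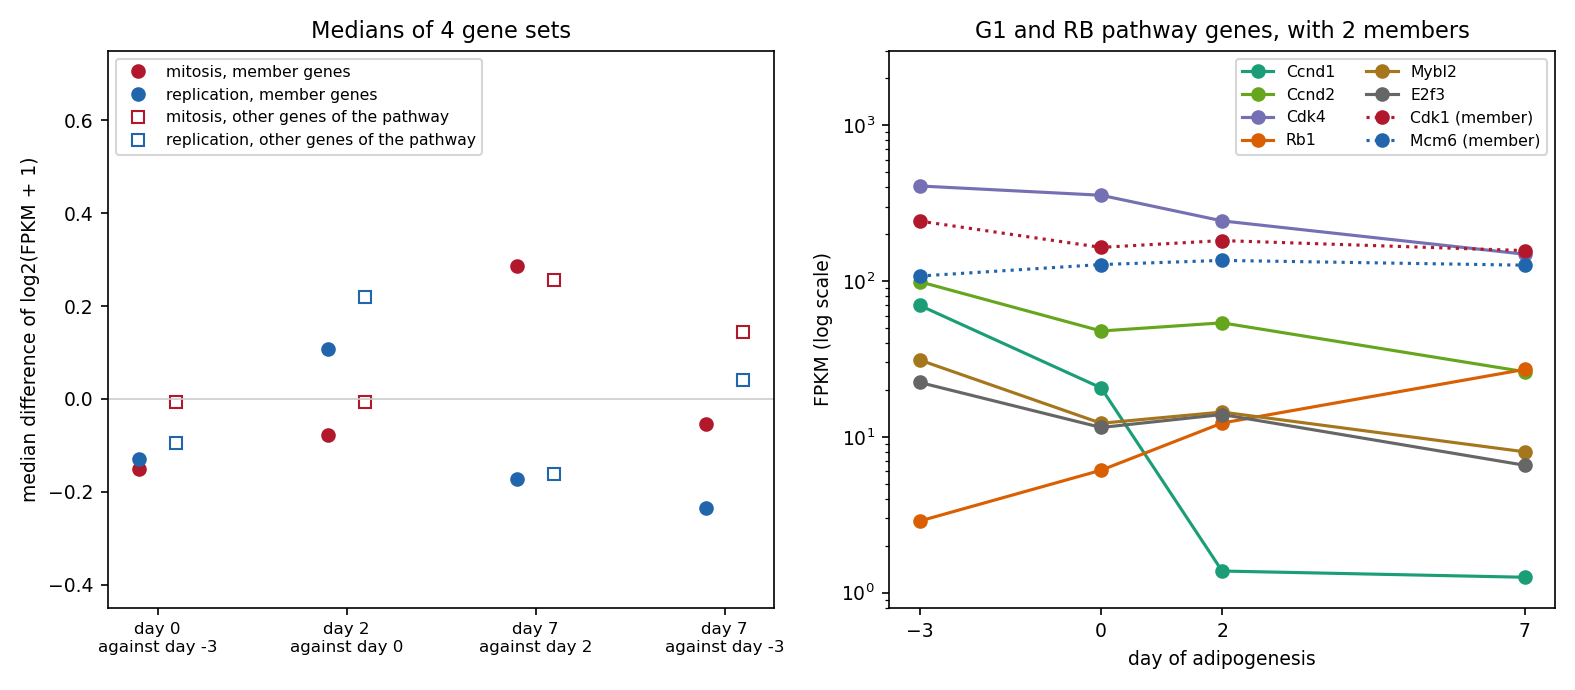
Left, the median difference of log2(FPKM + 1) of the 31 mitosis and 15 replication genes (circles) and of 54 and 46 other genes of each pathway (squares) in the 4 comparisons. Right, FPKM (log scale) by day of G1 and RB pathway genes with Cdk1 and Mcm6 of the member genes (dotted). The squares lie near the circles at day 7 against day 2, and Ccnd1 ends at 1.26 FPKM at day 7 while Cdk1 is at 157.

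In brown fat itself the mitosis genes were mostly at low levels. The replication genes were spread around the median of all genes, which was itself low. Tissue values are reads scaled for transcript length and library size (RPKM), taken for the transcript of each gene with the highest value. The median of the 47 genes was 0.183 RPKM, against 0.694 RPKM over all 22463 genes of that table. A total of 38 of 47 (80.9%) were below 1 RPKM, against 52.9% of all genes of the table. Listed at 0 were 5 of 47 (10.6%), Cdk1, Ccnb2, Ttk, Nuf2 and Birc5, a smaller share than the 33.9% of all genes. From the steps in low values, 1 read on 1 kb was worth 0.187 RPKM, so a value of 0 on 1 kb allows up to 0.561 RPKM (3 reads, counting error only). The low values of this library rest on few reads.

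The mitosis genes had a median of 0.109 RPKM, with 27 of 31 (87.1%) below 1 RPKM. The replication genes had a median of 0.710 RPKM, close to the 0.694 RPKM of all genes, with 11 of 16 (68.8%) below 1 RPKM against 52.9% of all genes. Mki67 was at 0.0928 RPKM and Top2a at 0.179 RPKM. The 9 genes at 1 RPKM or more were Rrm1 (6.03), Pcna (5.79), Cenpa (5.17), Mcm7 (2.50), Mad2l1 (2.06), Mcm4 (1.77), Kif20a (1.46), Ccna2 (1.13) and Mcm3 (1.04). Tyms was at 0.689 RPKM. The tissue carried its own markers, with medians of 374 RPKM for 10 adipocyte markers and 956 RPKM for 5 brown fat markers, and Ucp1 at 1015 RPKM. Of the markers of other cells, 6 endothelial markers had a median of 20.6 RPKM, and 6 of 7 macrophage markers with a value had 1.60 RPKM. The 7 leukocyte markers had a median of 0.327 RPKM, below that of all genes, with 6 of 7 below 1 RPKM and Cd3e at 0. The erythroid markers Hba-a1 and Alas2 were at 88.0 and 5.29 RPKM. Their part in the levels of the division genes was not tested.

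Units and annotation differ between the tissue and culture tables, so ranks were compared, as percentiles over the 10467 genes that reach 1 in the tissue or the day 7 table. Of the 46 genes, 37 were below 1 RPKM in tissue and entered through their culture value alone, and the culture tables list only genes above 1 FPKM in some culture library, so both filters favour a lower rank in tissue. All 46 genes ranked lower in tissue than in day 7 culture, and of all 10467 genes 5182 did. The 46 genes did so also with no filter on low values, where still only genes of the culture tables were ranked. Their median percentile was 4.14 in tissue and 88.8 in day 7 culture, and the median difference was -78.7 percentage points (-75.2 with no filter). A rank lower by at least 50 points was found for 41 of 46, and for 2.89% of all 10467 genes. Cdk1 differed most, at 0 RPKM and percentile 0.922 in tissue and 157 FPKM and percentile 97.5 at day 7 (-96.5 points). Top2a followed, at percentile 4.08 in tissue and 98.3 at day 7 (-94.2 points). Ccnb2 differed by -93.3, Racgap1 by -92.6 and Mki67 by -91.1 points.

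The smallest differences were those of Pcna (percentile 54.4 in tissue and 90.5 at day 7, -36.1 points) and Rrm1 (percentile 55.5 in tissue and 92.9 at day 7, -37.4 points), which with Cdc6, Ttk and Cenpa were the 5 genes short of 50 points. The median was -80.9 points for mitosis genes and -68.7 points for replication genes. Of the other pathway genes, 52 of 53 mitosis genes and 44 of 46 replication genes ranked lower in tissue, with medians of -63.6 and -48.0 points. Of all 10467 genes, 5182 ranked lower. In tissue, 43 of these 53 mitosis genes were below 1 RPKM and entered through their culture value alone. Below 1 RPKM were also 17 of the 48 other replication genes with a tissue value. The filters thus favour a lower rank in tissue for these lists too. The mitosis exception was Pttg1 (securin), at 34.9 RPKM in tissue. Tissue and culture differ in the animals' age, the Pparg alleles, the immortalization, the cell types present, the medium and the processing of the reads. These cannot be told apart with 1 library of each.

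**Figure D5:**
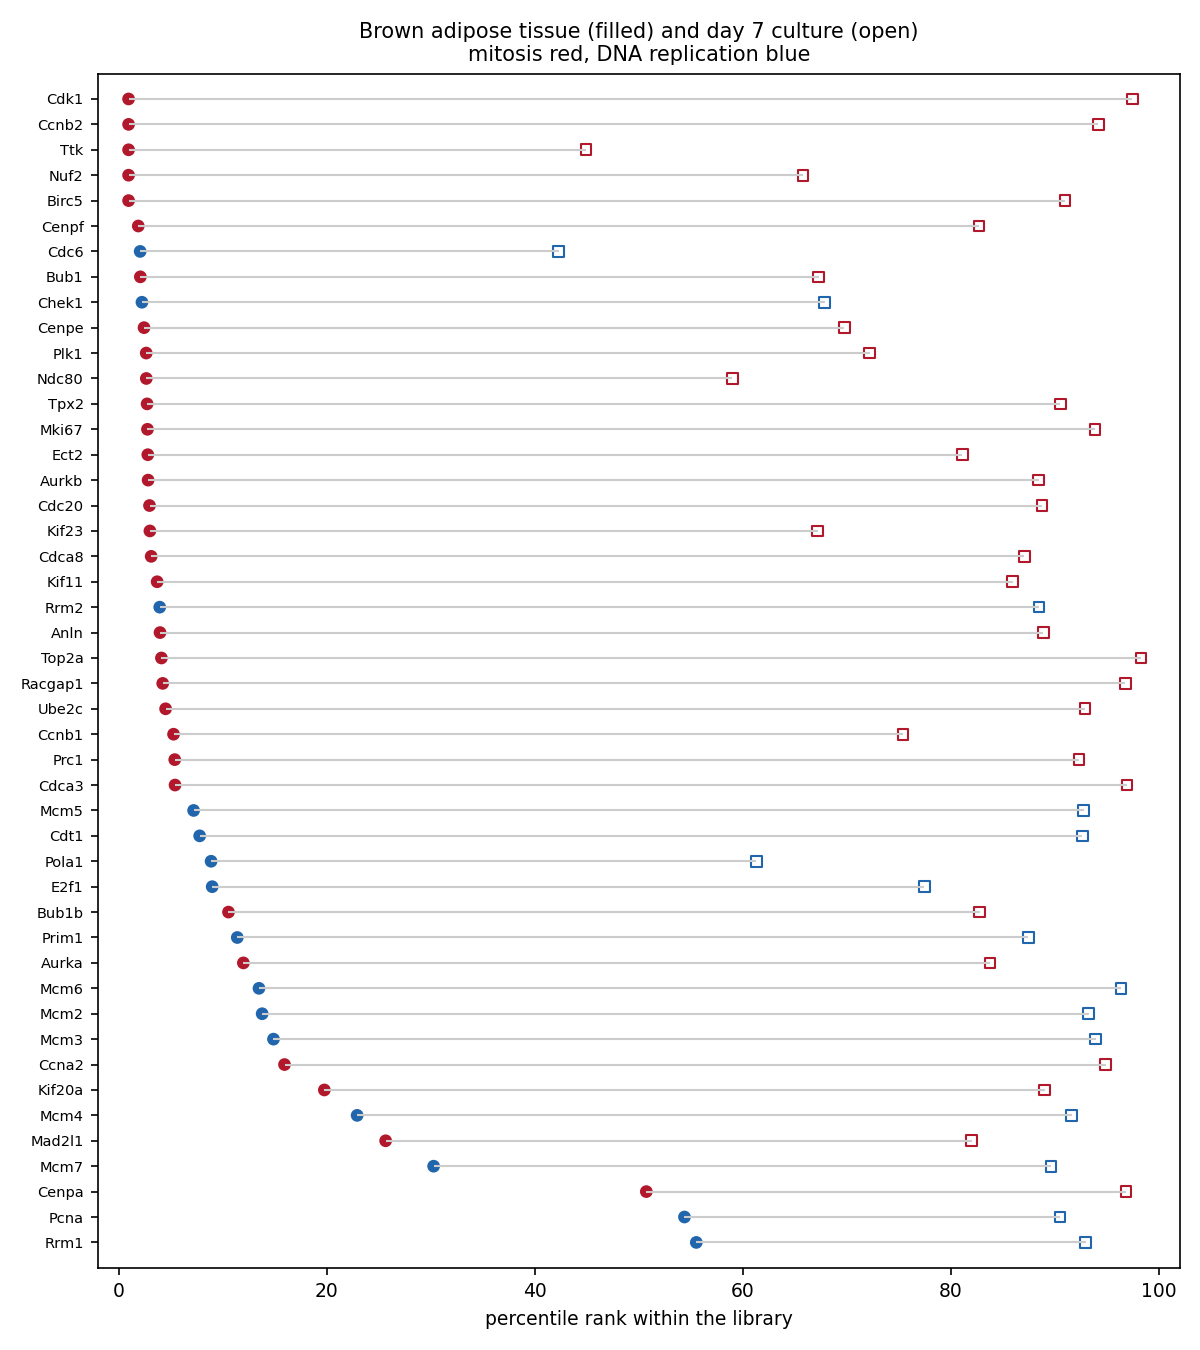
Percentile rank of each of the 46 genes in brown adipose tissue and in day 7 culture, over 10467 genes, tissue as filled circles and culture as open squares, mitosis in red and replication in blue. Every gene lies lower in tissue, with a median percentile of 4.14 in tissue and 88.8 at day 7, and Pcna and Rrm1 have the smallest differences.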

How the data were processed

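RNA of 5 libraries was used, 1 of tissue and 4 of culture, of 6 samples with files. The other 77 of the 83 samples and the 1 input DNA file were not analysed here. The culture values are FPKM per gene as the authors deposited them, and every listed gene exceeds 1 FPKM in some library (the smallest maximum was 1.00125). The tissue values are RPKM per RefSeq transcript as the authors deposited them. Per the submitters' processing notes, Cufflinks 1.0.3, TopHat2 2.0.10, CASAVA 1.8.2 and SICER were used for the culture samples with build mm9, and CASAVA 1.8.2 for the tissue. Which tool made which culture value, the annotation used and the handling of reads shared with pseudogene copies are not given in the sources used here. RNA was selected by poly(A), per the labels' protocols.

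Differences are of log2(FPKM + 1), which understates those of low genes. Genes whose larger value reached 1 counted as higher or lower from 1 log2 unit (2-fold) on. This is a rule of size, not a test. The median-ratio factors of the libraries lay between -4.09% and 1.51% from 1. Tissue transcripts were matched to symbols through RefSeq tables of GRCm38.p6 (28436 of 29082), and 98.7% of culture genes had a tissue value. For depth, 31 of 31 receptor transcripts gave whole reads within 0.01 of a read. The culture depth is unknown. The counting rule was tested on simulated data.

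Every gene of the list is named. Values in each library were given first for the highest, the most different and the called genes. The members, the lists of other genes and the rules were chosen with earlier results of these data known. Computations used numpy 2.4.6, scipy 1.17.1 and pandas 2.3.3 under Python 3.11.15, with matplotlib 3.10.9 for figures. Alternatives were other pseudocounts, scalings, filters and fold limits, means for medians, and other culture days or transcript means for the tissue.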

Additional observations from a re-analysis of the deposited data

How the results depend on the processing

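No paired analysis was possible because each day had 1 library, and no library could be left out for the same reason. None of the 46 genes changed direction past the fold limit or its call in any of the 4 culture comparisons. This held under pseudocounts of 0.1 and 5, both rescalings or no filter. The calls of genes on the other lists were not checked under these settings, and those close to 2-fold can change. A limit of 1.5-fold in place of 2-fold gave 1 higher and 2 lower of the 46 genes for day 0 against day -3. Of all 10602 genes, 2480 were higher and 1549 lower at that limit. For day 2 against day 0 it gave 3 and 1 of the 46 genes, and 1566 and 2252 of all 10717 genes. It gave 5 higher for day 7 against day 2, and 5 and 3 for day 7 against day -3. Counts of all genes at 1.5-fold are not given here for these later steps, and the shares at 2-fold do not apply to them. Rescaling to a common total moved the median of all 46 genes to 0.061, from -0.14 as deposited, for day 0 against day -3, and to 0.054, from -0.08, for day 7 against day -3. With means in place of medians the gap between mitosis and replication genes was 0.13 for day 0 against day -3 and 0.28 for day 7 against day -3, against -0.02 and 0.18 with medians. Means without Rrm2, an alternative chosen after seeing the data, gave 0.017 and 0.20 for those steps. For the tissue, all 46 genes ranked lower under transcript means, no filter and each other culture day. Every one of these settings ranked only genes of the culture tables, so the selection on culture values stayed in all of them. Differences of 1 library a group carry no replicate error, and tissue values under 0.561 RPKM on 1 kb rest on fewer than 3 reads.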

Other observations

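Genes that repair DNA in S phase and genes that shape mitotic chromosomes give further values. Of 17 S-phase repair genes, 15 (88.2%) stayed within 2-fold over the 4 days, against 51.6% of all listed genes. For day 7 against day -3, 2 of the 17, Chek2 and Brca2, were 2-fold higher and none was lower, where all genes had 20.3% higher and 14.7% lower. Chek2, a kinase of the DNA damage checkpoint, had 4.24, 11.0, 12.0 and 17.9 FPKM at days -3, 0, 2 and 7. Brca2, a gene of homologous recombination, had 3.66, 7.18, 8.82 and 12.2 FPKM. Both had their highest value in the mature adipocyte library. Exo1, an exonuclease of repair, had 9.20, 5.23, 9.49 and 5.09 FPKM, with low values at days 0 and 7. For day 2 against day 0, 16 of the 17 repair genes were above 0, with a median difference of 0.31, against -0.01 for all genes.

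Of 11 genes of condensin and of cohesin control, 8 (72.7%) stayed within 2-fold over the days, against 51.6% of all listed genes. Their median range was 0.73 log2 units, against 0.97 for all listed genes. Pttg1, Espl1 and Cdca5 of this list are also among the other mitosis genes above, so they count in both lists. For day 7 against day -3 the median difference of the list was 0.61, against 0.07 for all genes, with 8 of 11 above 0. At that step 2 of 11 (Pttg1 and Ncapd3) were 2-fold higher and none lower, where all genes had 20.3% higher and 14.7% lower. Ncapg2, a condensin subunit, had 24.6, 25.4, 59.5 and 38.1 FPKM. It was the 1 gene of this list past 2-fold at day 2 against day 0 (1.20), where 16.9% of all genes were. In brown adipose tissue this list had a median of 1.08 RPKM and the repair list 0.741 RPKM, against 0.183 RPKM for the 47 mitosis and replication genes described above. These values come from 1 library a group.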
